A study of Homo sapiens with 6 samples.

Results

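The transcriptome response of MDA-MB-231 cells to siATM was described across the genes that the platform annotation names, which leaves out many known genes. MDA-MB-231 is an established human breast cancer cell line of the triple-negative kind, which carries a mutant p53. Cells had been transfected by lipofection with a small interfering RNA (siRNA) against ATM (siATM), with a control siRNA (siNC) or with an siRNA against p53 (sip53), and total RNA was hybridised to 1 Affymetrix Human Gene 2.0 ST array per sample. The comparison took the 2 siATM arrays and the 2 siNC arrays out of 6 arrays in all, and the 2 sip53 arrays served for the question whether a change differed between the siRNAs. The transfection reagent and medium were common to all groups, and neither an untransfected sample nor a second siRNA against ATM is among the samples used here. The labels give no time after transfection. They also leave unsaid if replicate samples were grown as separate cultures, and the p-values therefore cover the spread among these 6 samples alone, part or all of which may be technical. The level of the ATM transcript itself is not analysed here, so the depth of the knockdown is not given.

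ATM is a protein kinase that is activated by DNA double-strand breaks and by oxidative stress. It phosphorylates checkpoint kinases, repair proteins and p53, and it can also signal from the nucleus to NF-kB, the transcription factor of inflammatory genes. Its best known outputs are cell cycle arrest, DNA repair, apoptosis and the cytokines secreted by damaged cells. The lists below cover those outputs briefly and the surface, matrix, metabolic, RNA and non-coding genes at more length.

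Values are log2 probe-set values, and a difference of 1 on this scale is a doubling. Each of 14884 named genes was represented by its brightest probe set, and the 10640 genes with a mean of at least 5.964 over the 6 arrays were tested. A gene was called when its adjusted p was below 0.05 in a limma model of all 6 arrays. After siATM 1325 genes were higher, 12.5% of those tested, and 1383 were lower, 13.0%. Together they made 2708 genes or 25.5%, so a share of a gene group means little unless it is far from these figures. The siATM and siNC arrays did not overlap for 6673 genes, 62.7% of those tested, so a lack of overlap alone is common here. The median difference over all tested genes was −0.000618.

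The number of calls depended on the control arrays: without siNC replicate 1 there were 1437 called genes, and without siNC replicate 2 there were 1489. A call is therefore said below to hold when it was also made, in the same direction, with any 1 of the 4 siATM and siNC arrays left out. The group that lost an array then has a single one, whose spread is assumed to be that of the other groups. Calls that held numbered 468 higher, 4.40% of the tested genes, and 634 lower, 5.96%. Changes of at least 1.5-fold numbered 134 higher, 1.26%, and 211 lower, 1.98%. Only 19 genes rose and 20 fell at least 2-fold, and the median size of a called change was 0.348.

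Promoter sequences are shown first for called members of 3 groups, chemokines, interferon-stimulated genes and replication or mitosis genes, because the letters that known regulators read recur in the promoters of members called lower. They are stretches of RefSeq promoters of the GRCh38.p14 build, 5′ to 3′ along the gene's own strand and ending upstream of the annotated start. For each group the 2 called members with the largest falls whose promoter held the motif were taken. Both strands were searched, and capitals mark a match on either strand. Chemokines attract leukocytes, and many of their promoters carry the NF-kB core GGNNTTTCC. CXCL8 encodes interleukin 8, which draws neutrophils, and its stretch is chr4:73740438-73740526 on the plus strand. CXCL11 encodes a T cell attractant, and its stretch is chr4:76036097-76036185 on the minus strand.
CXCL8: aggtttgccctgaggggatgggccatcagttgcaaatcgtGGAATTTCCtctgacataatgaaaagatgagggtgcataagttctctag
CXCL11: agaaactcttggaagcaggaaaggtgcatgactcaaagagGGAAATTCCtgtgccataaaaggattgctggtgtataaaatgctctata

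Interferon-stimulated genes encode antiviral proteins and are switched on through the IRF core GAAANNGAA. DDX60, a helicase of the antiviral response, is shown at chr4:168318757-168318880 on the minus strand with 2 matches. HERC5, the ligase that attaches the ubiquitin-like protein ISG15, is shown at chr4:88456955-88457094 on the plus strand with 3 matches, of which those that overlap run together.
DDX60: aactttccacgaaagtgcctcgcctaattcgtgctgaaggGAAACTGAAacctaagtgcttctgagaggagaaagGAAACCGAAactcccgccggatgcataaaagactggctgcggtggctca
HERC5: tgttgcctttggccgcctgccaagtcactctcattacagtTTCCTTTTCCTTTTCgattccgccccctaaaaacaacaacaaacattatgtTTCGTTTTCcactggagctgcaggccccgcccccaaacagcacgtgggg

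Replication genes carry E2F sites, searched as TTTNNCGC, and mitosis genes carry the cell cycle homology region (CHR), searched as TTTGAA. MCM3, a subunit of the replicative helicase, is shown at chr6:52284845-52284956 on the minus strand with 2 of the 3 E2F matches in its promoter, the other one being nearer the start. TYMS, the thymidylate synthase gene, is shown with its E2F match at chr18:657574-657652 on the plus strand. PRC1, which bundles microtubules of the spindle midzone, is shown with its CHR match at chr15:90994536-90994595 on the minus strand. KIF23, a kinesin of cytokinesis, is shown with its CHR match at chr15:69414254-69414339 on the plus strand.
MCM3: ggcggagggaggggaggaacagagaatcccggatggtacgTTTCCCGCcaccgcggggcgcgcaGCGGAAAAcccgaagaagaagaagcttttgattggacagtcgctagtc
TYMS: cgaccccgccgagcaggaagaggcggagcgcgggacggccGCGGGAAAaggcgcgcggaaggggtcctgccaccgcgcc
PRC1: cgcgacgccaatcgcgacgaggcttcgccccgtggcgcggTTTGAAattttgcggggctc
KIF23: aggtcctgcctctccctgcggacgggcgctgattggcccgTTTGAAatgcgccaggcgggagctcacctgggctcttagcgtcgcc

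Of the tested genes, 8223 had a promoter in the RefSeq table, each 300 bases long. The IRF core was in the promoters of 11 of 17 interferon-stimulated genes called lower (64.7%), against 5.79% of all tested genes. The NF-kB core was in 3 of 4 chemokine promoters of genes called lower, against 6.58%. Of 38 replication and mitosis genes called lower, 13 held the E2F letters (34.2%, against 10.0%), 13 the CHR letters (34.2%, against 9.7%) and 30 the NF-Y letters CCAAT (78.9%, against 36.1%). These groups were known to share such sites, so the shares describe the members and say nothing about which factor acted. The FOXO list described below was searched too, in 11 promoters of genes called higher. The FOXO letters TGTTTAC were in 1 of them (9.09%, against 2.42%) and the IRF core in 3 (27.3%, against 5.79%).

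The same letters were counted over all genes with large changes. Among the 166 genes called at least 1.5-fold lower that had a promoter, 18.7% held CHR, 15.7% E2F, 41.6% NF-Y, 7.23% the NF-kB core and 6.63% the IRF core. Among the 95 genes called at least 1.5-fold higher, 10.5% held CHR, 5.26% E2F, 34.7% NF-Y, 8.42% the NF-kB core and 2.11% the IRF core. The AP-1 letters TGANTCA were in 11.6% of the higher and 9.04% of the lower genes, against 4.99% of tested genes. The FOXO letters TGTTTAC were in 3.16% and 2.41%, against 2.42%, and the CRE letters TGACGTCA in 3.16% and 3.61%, against 2.99%. Over all 27305 promoters in the table the shares were 6.26% for NF-kB, 8.29% for IRF, 3.41% for FOXO, 6.9% for E2F, 15.4% for CHR, 35.7% for NF-Y, 7.76% for AP-1 and 1.98% for CRE.

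**Figure D1:**
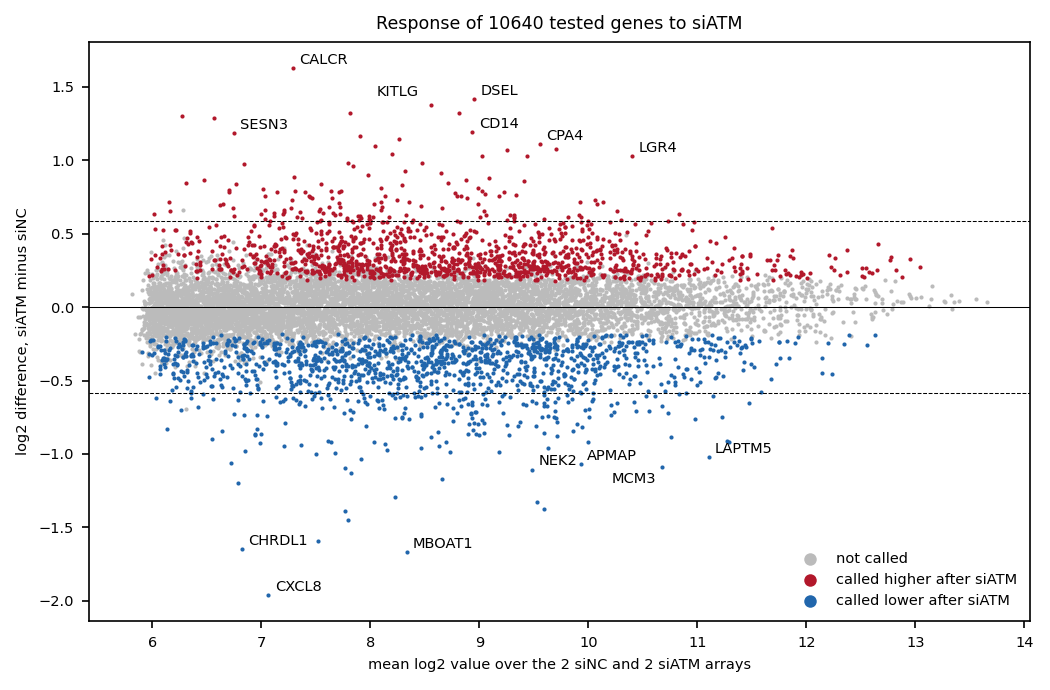
Difference between the mean log2 values of the 2 siATM and the 2 siNC arrays (vertical axis) against the mean log2 value over those 4 arrays (horizontal axis) for the 10640 tested genes. Red points were called higher and blue points lower (limma, adjusted p below 0.05), dashed lines mark a 1.5-fold difference, and most called genes lie between those lines.

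The brightness of a gene bore on its chance of being called. In the dimmest of 5 equal parts of the tested genes 11% were called, in the middle part 31.5% and in the brightest part 31.1%. In the brightest part 12 genes rose and 48 fell by 1.5-fold or more, as the plot of differences against brightness shows. Protein-coding genes were called in 26.7% of cases, long non-coding RNAs in 19.5% and microRNA genes in 10.6%. Of 15378 probe sets that were bright enough but have no symbol here, 835 were called, 5.43%.

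The 3 largest rises were in CALCR, DSEL and KITLG. CALCR, the calcitonin receptor, read 6.51 and 6.45 with siNC and 8.14 and 8.07 with siATM, a 3.09-fold difference (adjusted p = 4.79e-05). DSEL, an epimerase that makes dermatan sulfate, read 8.19 and 8.30 with siNC and 9.67 and 9.65 with siATM. KITLG, the ligand of the KIT receptor, read 7.80 and 7.93 with siNC and 9.26 and 9.23 with siATM. In each of these 3 genes the arrays of a group lay close together. A lack of overlap between the groups was a condition for choosing the largest rises and falls.

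The next rises described are those below the 10 largest. AGR2, a secreted disulfide isomerase of mucous epithelia, read 7.72 and 7.67 with siNC and 8.88 and 8.79 with siATM, 2.21-fold higher (SE 0.07 on the log2 scale, adjusted p = 0.000207). CPA4, a secreted carboxypeptidase, read 9.02 and 8.99 with siNC and 10.11 and 10.11 with siATM (2.15-fold, adjusted p = 0.000117). ADAM28, a membrane metalloprotease, read 7.67 and 7.70 with siNC and 8.73 and 8.71 with siATM. All 3 were also higher than with sip53, by 0.82, 1.13 and 0.53 on the log2 scale, so the siATM arrays were the highest of the 6. SELPLG, the ligand of P-selectin, read 8.51 and 8.52 with siNC, 9.55 and 9.54 with siATM and 8.26 and 8.14 with sip53. LGR4, a receptor for R-spondins that strengthens Wnt signals, read 9.88 and 9.90 with siNC and 10.97 and 10.86 with siATM, at the bright end of the rising genes. VASN, a membrane protein that binds TGF-beta, rose by 0.98 and TSPAN13, a tetraspanin, by 0.98.

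Further genes among the 25 largest rises had other roles. SSBP2, a single-stranded DNA binding protein, read 9.07 and 9.26 with siNC and 10.27 and 10.21 with siATM (2.10-fold). DHRS3, a retinal reductase, read 7.39 and 7.33 with siNC and 8.31 and 8.32 with siATM, and 7.36 and 7.27 with sip53. PLAG1, a zinc finger transcription factor, rose by 0.93 (SE 0.10) and CLIC3, an intracellular chloride channel protein, by 1.03 (SE 0.07). PPIL6 had uneven controls, 6.04 and 6.66 with siNC against 7.35 and 7.30 with siATM, and its SE was 0.18. TMEM45A (1.10) and TLCD2 (0.91), both membrane proteins, completed the 25 largest rises with BAMBI, a pseudoreceptor of the TGF-beta family (1.07).

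**Figure D2:**
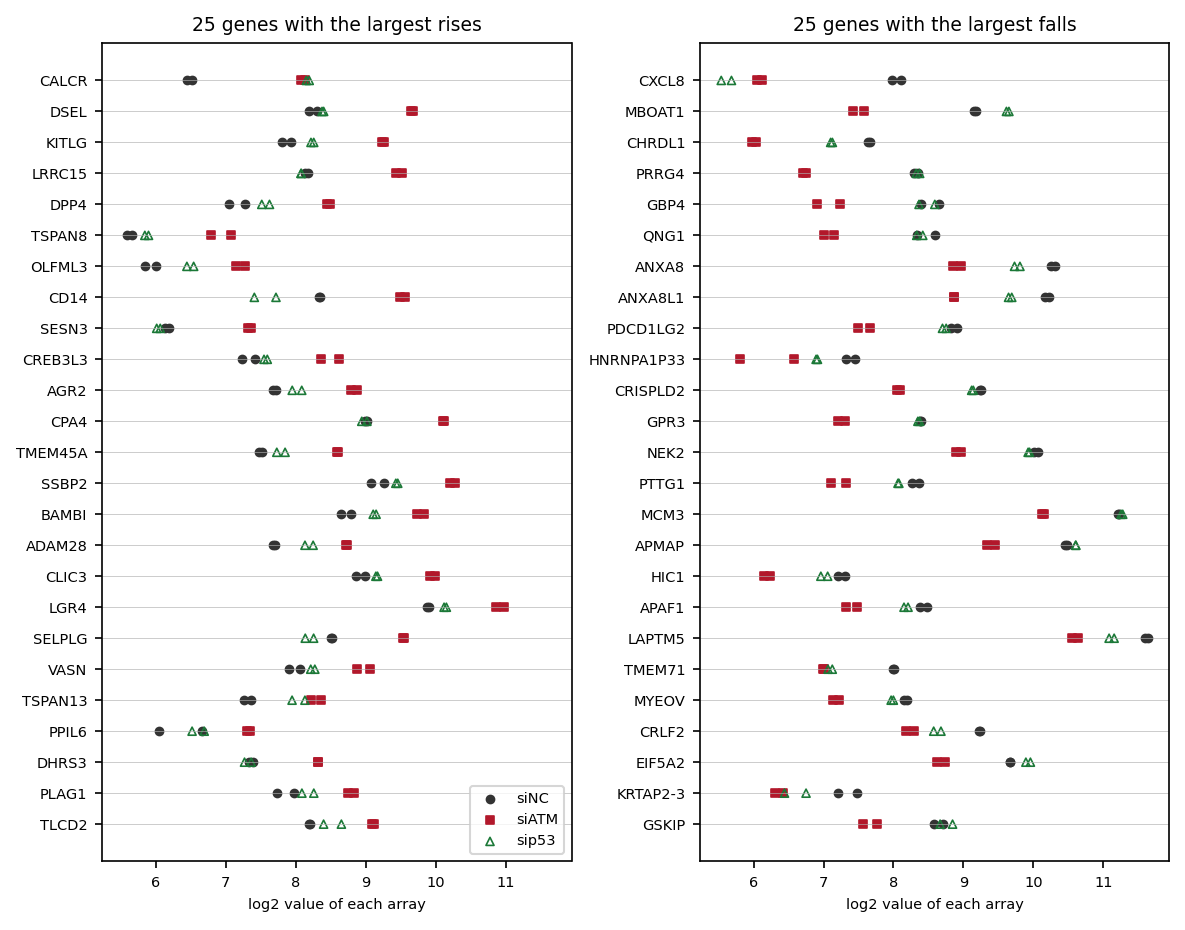
Log2 value of each array (horizontal axis) for the 25 genes with the largest rises (left) and the 25 with the largest falls (right) after siATM, drawn from called genes with siATM and siNC arrays apart. Each marker is 1 array of siNC (filled circles), siATM (filled squares) or sip53 (open triangles), and for CALCR and TMEM71 the sip53 arrays lie beside the siATM arrays while for CD14, SELPLG, MBOAT1 and EIF5A2 they lie on the other side of siNC.

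The 3 largest falls were in CXCL8, MBOAT1 and CHRDL1. CXCL8 read 8.11 and 7.98 with siNC and 6.12 and 6.05 with siATM, the largest fall at 3.89-fold (adjusted p = 4.79e-05). MBOAT1, an acyltransferase of phospholipids, read 9.18 and 9.16 with siNC and 7.58 and 7.43 with siATM. CHRDL1, a secreted antagonist of bone morphogenetic proteins, read 7.63 and 7.67 with siNC and 6.03 and 5.97 with siATM. Both siATM arrays of all 3 genes lay at least 1 unit below both siNC arrays.

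Below the 10 largest falls, CRISPLD2, a secreted glycoprotein, read 9.23 and 9.25 with siNC and 8.09 and 8.06 with siATM (2.25-fold, SE 0.05 on the log2 scale, adjusted p = 8.94e-05). GPR3, a receptor that raises cyclic AMP without a ligand, read 8.38 and 8.40 with siNC and 7.20 and 7.31 with siATM (2.19-fold). APMAP, a membrane protein of adipocytes, read 10.48 and 10.45 with siNC and 9.34 and 9.45 with siATM (2.10-fold). The sip53 arrays of all 3 read close to siNC, at 9.14 and 9.12 for CRISPLD2, 8.37 and 8.35 for GPR3 and 10.60 and 10.61 for APMAP. APAF1, the scaffold of the apoptosome, read 8.48 and 8.38 with siNC and 7.47 and 7.32 with siATM (2.05-fold, adjusted p = 0.000292). HIC1, a transcriptional repressor, read 7.30 and 7.21 with siNC and 6.15 and 6.24 with siATM. LAPTM5, a lysosomal membrane protein, read 11.60 and 11.64 with siNC and 10.55 and 10.64 with siATM and was one of the brightest of the large falls.

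CRLF2, the receptor chain for thymic stromal lymphopoietin, read 9.23 and 9.22 with siNC and 8.30 and 8.18 with siATM. EIF5A2, a translation factor, read 9.67 and 9.67 with siNC and 8.74 and 8.63 with siATM. GSKIP, a binding partner of the kinase GSK3-beta, read 8.70 and 8.58 with siNC and 7.77 and 7.57 with siATM. These 3 genes were about 2-fold lower. TMEM71 fell by 1.00, MYEOV by 0.99 and the keratin-associated KRTAP2-3 by 0.98. NEK2, a centrosome kinase, PTTG1, the securin, and MCM3 were the replication and mitosis genes among the 25 largest falls. All 25 largest rises and all 25 largest falls kept their call in every alternative in which they were tested.

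The response to siATM was compared directly with that to sip53. The direct contrast of siATM and sip53 called 1487 genes higher, 14.0% of those tested, and 1732 lower, 16.3%. Of the 25 largest rises after siATM 23 were also higher than with sip53, the other two being CALCR (−0.07, adjusted p = 0.436) and TSPAN13 (0.25, adjusted p = 0.0616). Of the 25 largest falls 22 were also lower than with sip53. TMEM71 (−0.09, adjusted p = 0.257) and KRTAP2-3 (−0.23, adjusted p = 0.202) were not called, and CXCL8 was 0.48 higher with siATM than with sip53 (adjusted p = 0.00329). A p that misses the threshold does not show that the siRNAs act alike. Against siNC, sip53 was called in the same direction for 10 of the 25 rises and 8 of the 25 falls. The same siATM arrays ranked these genes, so the counts of 23 and 22 do not measure how particular the response is to siATM.

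For 4 of these genes the siRNAs moved the level to opposite sides of the control, and siATM and sip53 were each compared with the same siNC arrays. CD14, the lipopolysaccharide co-receptor, read 8.35 and 8.33 with siNC, 9.57 and 9.49 with siATM and 7.72 and 7.41 with sip53, so it differed by 1.97 between the siRNAs. SELPLG was 1.03 above siNC with siATM and −0.32 from it with sip53. MBOAT1 was −1.67 from siNC with siATM and 0.46 above it with sip53, where its arrays read 9.65 and 9.62. EIF5A2 was −0.99 from siNC with siATM and 0.26 above it with sip53. All 8 of these differences from siNC were called.

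Gene groups were described by their counts, beside 12.5% higher and 13.0% lower for all tested genes. The lists and their members were chosen with earlier results of these data known. A share above those figures may therefore come in part from that choice. Lists can share members, so their counts are not independent of one another. Several lists are partial, because many members are missing from the annotation. The annotation holds 41 of 86 matrix proteins, 22 of 64 cytokine and TNF receptors, 1 of 46 proteasome subunits and 0 of 25 integrins. The lists of earlier interest are given only as the base for the rest. Of 53 replication and mitosis genes 48 were lower and 0 higher, and 44 of the falls held, with a median of −0.50. Fewer cells in these phases and less RNA of these genes per cell cannot be told apart in bulk samples. Of 45 DNA repair genes 18 were lower and 1 higher, of 39 interferon-stimulated genes 19 and 2, and of 13 chemokines 5 and 0, with 13, 14 and 4 falls that held. Of the genes shown by their promoters, DDX60 read 8.64 and 8.70 with siNC and 8.0 and 7.89 with siATM, and HERC5 read 9.16 and 9.09 with siNC and 8.60 and 8.49 with siATM. CXCL11 read 8.08 and 7.81 with siNC and 7.25 and 7.38 with siATM, while with sip53 it read 7.35 and 7.24, next to siATM. TYMS fell by 0.76, PRC1 by 0.72 and KIF23 by 0.61.

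**Figure D3:**
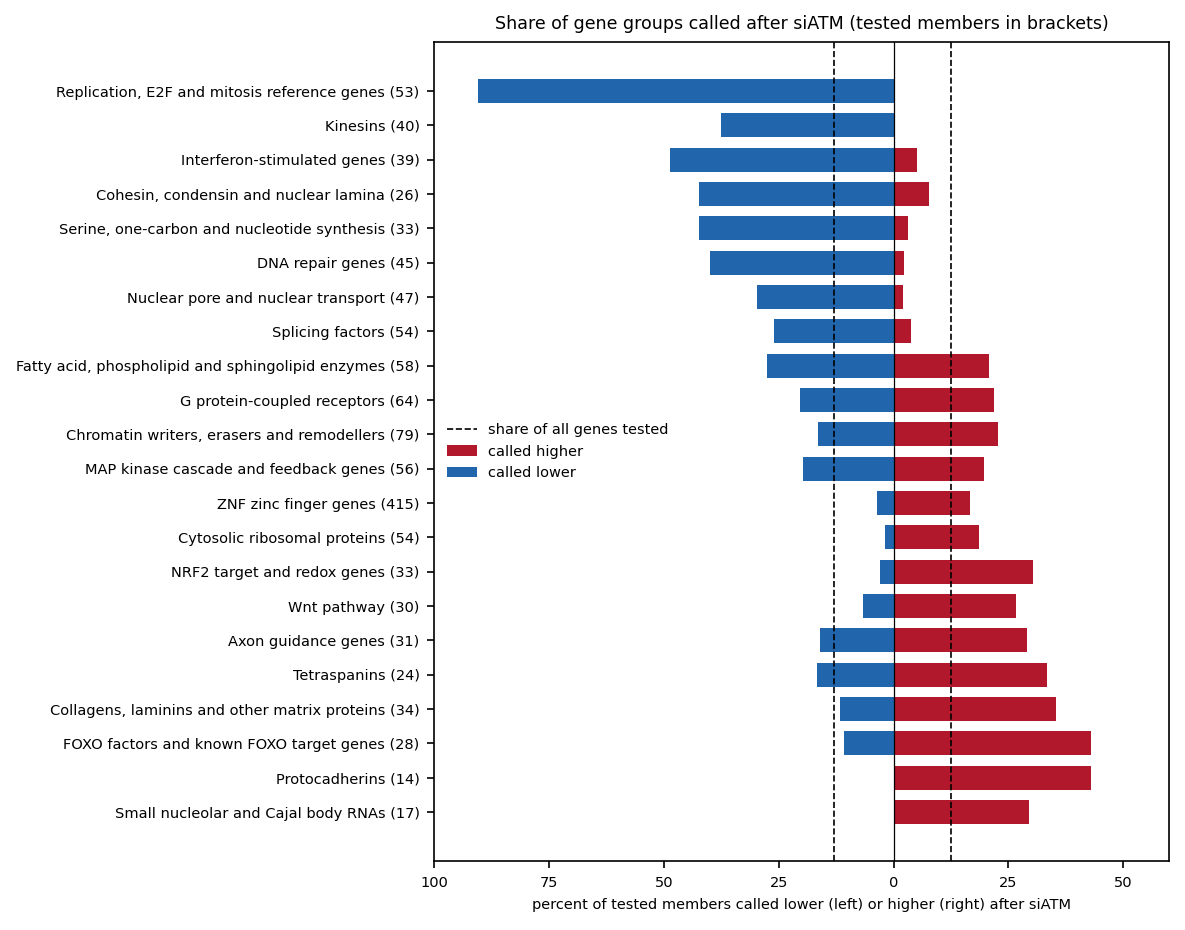
Percent of tested members of 22 gene groups called lower (bars to the left) or higher (bars to the right) after siATM, with the number of tested members in brackets. Dashed lines mark the shares of all tested genes, 13.0% lower and 12.5% higher, and the replication and mitosis genes lie farthest to the left. Bars count calls of any size, including calls that did not hold with 1 array left out. The groups were picked by hand from the 66 lists with at least 5 tested members. Lists not drawn include heat shock proteins and chaperones (1 higher, 2 lower of 21) and eicosanoid genes (0 higher, 1 lower of 18). Glycolysis and hypoxia-linked genes (1 higher, 2 lower of 22) and the circadian clock (2 higher, 4 lower of 12) are also not drawn.

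Kinesins move along microtubules, and of 40 tested 15 were lower, 0 higher and 25 not called, with 14 falls that held. They included KIF4A (−0.82) and its near-identical copy KIF4B (−0.84), whose probe sets may share signal, and KIF14 (−0.81). KIF23 is counted here and among the replication and mitosis genes, so the falls of these lists are not separate results. Cohesin, condensin and the nuclear lamina shape chromosomes, and of 26 genes 11 were lower, 10 of which held, 2 were higher and 13 were not called (median −0.11). SMC2, a condensin subunit, read 10.30 and 10.34 with siNC and 9.74 and 9.50 with siATM. LBR, the lamin B receptor, read 10.26 and 10.07 with siNC, 9.67 and 9.41 with siATM and 10.52 and 10.49 with sip53, so it was lowest with siATM.

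Nuclear pore and transport genes numbered 14 lower and 1 higher of 47, with a median of −0.11, but only 3 of the falls held. NDC1, a membrane nucleoporin, read 10.95 and 10.88 with siNC and 10.29 and 10.12 with siATM. Of 54 splicing factor symbols 14 were lower and 2 higher, with 5 falls that held, led among coding genes by PRPF3 (−0.49) and SRSF1 (−0.46). Of 37 ubiquitin-specific proteases 11 were lower and 2 higher although the median was 0.02, and 5 falls held. USP1, which deubiquitinates Fanconi proteins, fell by 0.50, and USP12 by 0.74.

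Enzymes of serine, one-carbon and nucleotide synthesis were lower in 14 of 33 cases and higher in 1, with a median of −0.20 and 5 falls that held. The list's largest fall was −0.76, the size given above for TYMS, and its overlap with the replication and mitosis genes was not counted. PSAT1, the serine pathway aminotransferase, read 10.96 and 10.90 with siNC and 10.44 and 10.37 with siATM, and its sip53 mean was 11.04 ± 0.05 (SD, n = 2). RRM2, a subunit of ribonucleotide reductase, fell by 0.49, and PPAT, the first enzyme of purine synthesis, by 0.37. Fatty acid, phospholipid and sphingolipid enzymes moved both ways, 12 higher and 16 lower of 58, of which 4 rises and 8 falls held, with MBOAT1 far ahead of CEPT1 (−0.57). Sterol genes were higher in 4 and lower in 3 of 21 cases, of which 1 rise and 2 falls held. SLC25A15, the mitochondrial ornithine carrier, read 8.67 and 8.65 with siNC and 7.89 and 8.06 with siATM.

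Matrix proteins surround and anchor cells, and they were higher in 12 of 34 cases and lower in 4, with 9 rises and 1 fall that held and a median of 0.04. OLFML3, a secreted matrix scaffold protein, read 5.84 and 6.01 with siNC and 7.15 and 7.27 with siATM. Its siNC mean lay below the level needed for testing, so it was tested only because its other arrays were brighter, and the same holds for TSPAN8. HSPG2, the basement membrane proteoglycan perlecan, read 8.92 and 9.03 with siNC and 9.80 and 9.87 with siATM (1.81-fold, adjusted p = 0.000342). FN1, fibronectin, read 12.44 on both siNC arrays and 12.86 and 12.88 with siATM, a small but even rise of a very bright gene. OLFML2B went the other way, from 7.80 and 7.87 to 6.83 and 6.95.

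Enzymes that build or sulfate glycosaminoglycans were higher in 7 of 40 cases and lower in 4, of which 4 rises and 0 falls held. Beside DSEL, HAS3, a hyaluronan synthase, read 7.66 and 7.69 with siNC and 8.34 and 8.24 with siATM, and HS3ST3B1, a heparan sulfotransferase, rose by 0.62. Matrix proteases, surface peptidases and their inhibitors were higher in 9 of 39 cases and lower in 3, of which 7 rises and 2 falls held. ADAM17, the sheddase of TNF and of EGF receptor ligands, read 9.48 and 9.54 with siNC and 10.16 and 10.08 with siATM. RECK, a membrane inhibitor of metalloproteases, read 8.70 and 8.65 with siNC and 9.43 and 9.45 with siATM. MMP1, a collagenase, read 6.70 and 6.82 with siNC, 6.22 and 5.95 with siATM and 6.01 and 5.83 with sip53, and was low with both siRNAs.

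Of 30 genes of the Wnt pathway, which controls beta-catenin, 8 were higher, 6 of which held, 2 were lower, 0 of which held, and 20 were not called, with a median of 0.02. LRP5 and LRP6, the co-receptors, rose by 0.42 and 0.53, FZD7, a receptor, by 0.43, and RNF43, a ligase that removes receptors, by 0.44. LRP6 read 9.68 and 9.67 with siNC and 10.24 and 10.16 with siATM. FZD7 read 9.84 and 9.76 with siNC and 10.20 and 10.27 with siATM, and 10.24 and 10.30 with sip53, so both siRNAs raised it to a like level. Notch genes were called in 4 of 29 cases (13.8%, against 25.5% of all tested genes), and 2 of the calls held. All 4 were higher, a share close to the 12.5% higher over all tested genes.

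Of 64 G protein-coupled receptors 14 were higher and 13 lower, with 8 and 9 that held, so both directions were above the shares of all genes. The extremes were CALCR and LGR4 upward and GPR3 and ADGRG1 (−0.75) downward. Receptor tyrosine kinases numbered 6 higher and 3 lower of 26, of which 4 rises and 1 fall held. DDR1, a collagen receptor, read 9.50 and 9.52 with siNC, 10.01 and 10.11 with siATM and 9.42 and 9.43 with sip53. MERTK, a receptor for phagocytosis ligands, fell from 8.58 and 8.59 to 7.92 and 8.02. IGF1R, the receptor of insulin-like growth factors, rose by 0.51, and IL6R, a receptor of interleukin 6, by 0.56.

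Growth factors and cytokine-type ligands were higher in 8 of 31 cases and lower in 6, but 1 rise, that of KITLG, and 6 falls held. IL11, a cytokine of the interleukin 6 family, read 7.79 and 7.84 with siNC and 7.24 on both siATM arrays. EGF, the epidermal growth factor, fell by 0.46 and VEGFA, the angiogenic factor, by 0.37. Components and feedback genes of NF-kB were higher in 1 of 27 cases and lower in 5, with 3 falls that held, among them TRAF1 (−0.36) and the adhesion molecule VCAM1 (−0.44). The upward member was MAP3K14, the kinase of the alternative NF-kB pathway (0.44).

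Genes of the MAP kinase cascade moved both ways, 11 higher and 11 lower of 56, of which 6 rises and 3 falls held. ETV4, a transcription factor of the pathway, read 9.48 and 9.46 with siNC and 8.63 and 8.60 with siATM. DUSP1, a phosphatase that ends the signal, read 9.60 and 9.61 with siNC, 10.15 and 10.30 with siATM and 9.32 and 9.43 with sip53. SPRY2, another inhibitor of the cascade, rose by 0.58. In the TGF-beta and BMP list, 9 of 37 genes were higher and 7 lower, of which 7 rises and 5 falls held. The forkhead, SOX and KLF factors were higher in 10 of 63 cases and lower in 3, of which 5 rises and 2 falls held.

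Genes of FOXO factors and their targets, which act in starvation and stress, were higher in 12 of 28 cases and lower in 3, with a median of 0.18, but 5 rises and 2 falls held. SESN3, a sestrin that restrains mTOR, read 6.14 and 6.18 with siNC and 7.32 and 7.36 with siATM. TXNIP, which binds thioredoxin, read 11.37 and 11.46 with siNC and 11.99 and 11.92 with siATM. NRF2 target and redox genes, which detoxify oxidants, were higher in 10 of 33 cases and lower in 1, with a median of 0.16 and 3 rises that held. GSTA4, a glutathione transferase for lipid aldehydes, read 8.53 and 8.48 with siNC and 9.18 and 8.99 with siATM, and 9.03 on both sip53 arrays. Among tested genes TXNIP and CAT, the catalase gene, are members of both lists. In the list of stress genes of the endoplasmic reticulum and of amino acid shortage 6 of 29 were higher and 5 lower, with 2 each way that held. ASNS, asparagine synthetase, fell by 0.55 and PSAT1 by 0.52 while CREB3L3, a membrane-bound transcription factor, rose by 1.16.

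Axon guidance genes were higher in 9 of 31 cases and lower in 5, and 6 rises and 1 fall held. PLXNB3, a semaphorin receptor, read 8.62 and 8.69 with siNC and 9.44 and 9.63 with siATM. Tetraspanins, which organise membrane domains, were higher in 8 of 24 cases and lower in 4, of which 5 rises and 1 fall held. TSPAN8, dim in the controls, read 5.66 and 5.59 with siNC and 7.07 and 6.78 with siATM. CD82, a tetraspanin known as a metastasis suppressor, read 9.97 and 9.94 with siNC and 9.25 and 9.31 with siATM. Protocadherins were higher in 6 of 14 cases and lower in 0, and 3 rises held, led by PCDHB11, which read 7.17 and 7.50 with siNC and 8.24 and 8.01 with siATM. Clustered protocadherins are alike in sequence, so their probe sets may share signal.

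Chromatin writers, erasers and remodellers were higher in 18 of 79 cases and lower in 13, with 6 and 3 that held. HDAC5, a histone deacetylase, read 8.82 and 8.86 with siNC and 9.54 and 9.70 with siATM. KDM6B, a histone demethylase, rose by 0.58, and UHRF1, which keeps DNA methylation after replication, fell by 0.54. Zinc finger genes with symbols starting ZNF were higher in 69 of 415 cases and lower in 15. These shares were 16.6% against 12.5% upward and 3.61% against 13.0% downward. Of these calls 19 rises and 8 falls held, where 4.40% of all tested genes rose and 5.96% fell with calls that held. The share of rises that held was thus close to that of all genes. Cytosolic ribosomal proteins were higher in 10 of 54 cases and lower in 1, and 1 rise and 1 fall held.

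Cell type markers were read for their level in the line and their change after siATM. The marker lists hold genes named above for large changes, such as CD14, SELPLG, AGR2 and LAPTM5. Changes within the lists are therefore no independent check. Percentiles here are among all probe sets, with or without a symbol. Of the 10 markers placed as present in this line 7 are annotated, and these lay at the 78.3 to 99.4 percentile. Of these, FOSL1 was lower after siATM (−0.25, adjusted p = 0.0279). Of 7 markers placed as absent 5 are annotated, and all but EPCAM lay below the level needed for testing, while EPCAM lay at the 86.8 percentile and did not pass (0.10, adjusted p = 0.218). Of 12 blood cell markers 7 are annotated. CD14, CD22 (0.68), SELPLG and LYZ (0.38) rose and LAPTM5 fell. The summed linear values of the annotated members were 8096 and 8487 with siNC and 8072 and 8235 with siATM. Of 10 fibroblast and pericyte markers 4 are annotated and 3 were tested. LRRC15, LUM (0.68) and RGS5 (0.25) rose, with sums of 552 and 520.4 with siNC and 1042 and 1113 with siATM. Most of that rise came from LRRC15, whose mean log2 value was 8.15 with siNC and 9.47 with siATM. DCN, which defines fibroblasts, lay at the 5.41 percentile. Of 12 luminal markers 10 are annotated and 9 were tested, of which 4 rose, AGR2, GATA3, KRT7 and KRT19, and 1 fell, SPDEF, with sums of 4793 and 4841 with siNC and 5395 and 5523 with siATM. Of 7 endothelial markers 5 are annotated and 4 were tested. ESAM (−0.75) and PECAM1 (−0.47) fell, with sums of 1733 and 1824 with siNC and 1159 and 1167 with siATM. Most of that fall came from ESAM, whose mean log2 value was 10.39 with siNC and 9.64 with siATM. The calls of RGS5, GATA3, KRT7, KRT19, SPDEF and PECAM1 did not hold with 1 array left out. The part of these cell type markers in the gene group results was not tested.

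Of 850 symbols of non-coding, antisense or uncharacterised genes 83 were higher and 57 lower, both below the shares of all tested genes, 12.5% and 13.0%. Antisense RNA genes were higher in 34 of 246 cases (13.8%) and lower in 20 (8.13%), of which 12 rises and 7 falls held. Their share of rises was thus close to that of all tested genes and their share of falls below it. SH3BP5-AS1 read 7.55 and 7.51 with siNC and 8.54 and 8.32 with siATM. USP30-AS1 read 8.15 and 8.04 with siNC and 7.19 and 7.16 with siATM, and FGD5-AS1 read 10.04 and 10.01 with siNC and 9.25 and 9.08 with siATM. Small nucleolar and Cajal body RNAs, which guide chemical marks on other RNAs, were higher in 5 of 17 cases and lower in 0, and SCARNA17 (0.65), SCARNA6 (0.56) and SCARNA12 (0.53) held. LOC286437 had uneven controls of 6.99 and 7.65 against 8.06 and 8.15 with siATM.

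MicroRNA symbols on this array measure precursor or host transcripts and not the mature microRNA. Of 363 tested 323 had a RefSeq sequence, and 20 were higher and 21 lower, of which 5 each way held. These shares, 5.5% higher and 5.8% lower, lay below the 12.5% and 13.0% of all tested genes. The microRNA symbols were thus called less often than genes in general. The mature sequences of the changed precursors are printed with bases 2 to 8, the seed that pairs with targets, in capitals. MIR146A, MIR891A, MIR3198-1 and MIR3671 were named by rank, and MIR27B likewise, while MIR27A, MIR23A, MIR25 and MIR106B were chosen after their values were seen because they share clusters or seeds with a changed gene.
hsa-miR-146a-5p: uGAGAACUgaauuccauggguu
hsa-miR-891a-5p: uGCAACGAaccugagccacuga
hsa-miR-3198: gUGGAGUCcuggggaauggaga
hsa-miR-3671: aUCAAAUAaggacuagucugca
hsa-miR-27b-3p: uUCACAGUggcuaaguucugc
hsa-miR-27a-3p: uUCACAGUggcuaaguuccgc
hsa-miR-23a-3p: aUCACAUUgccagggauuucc
hsa-miR-106b-5p: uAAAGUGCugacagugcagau
hsa-miR-25-3p: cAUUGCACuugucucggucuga

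MIR146A, a microRNA gene induced by NF-kB that dampens the same pathway, read 7.60 and 7.30 with siNC and 6.61 and 6.44 with siATM, and 6.74 and 6.67 with sip53, so both siRNAs lowered it. The precursors MIR27B and MIR27A, whose mature arms share the seed UCACAGU, were both higher. MIR27B read 8.57 and 8.46 with siNC and 9.23 and 9.29 with siATM, and with sip53 it read 9.20 and 9.29. MIR27A read 7.96 and 8.08 with siNC, 8.36 and 8.68 with siATM and 7.97 and 7.76 with sip53, and its call did not hold with 1 array left out. Of their cluster neighbours MIR23A rose by 0.30 with a call that did not hold, while MIR23B (0.29, adjusted p = 0.0523) and MIR24-2 (0.20, adjusted p = 0.162) were not called.

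MIR106B, MIR25 and MIR93 lie within the MCM7 gene. MIR106B fell by 0.32 and MIR25 by 0.29, each without a call that held, and MIR93 was −0.02 from siNC (adjusted p = 0.818). MCM7 itself, a helicase subunit, had a mean of 10.99 ± 0.01 with siNC and of 10.53 ± 0.06 with siATM (SD, n = 2 each), 1.37-fold lower (adjusted p = 0.00197). MIR891A read 8.84 and 9.16 with siNC and 8.23 and 8.0 with siATM. MIR3198-1 read 7.32 and 7.43 with siNC and 6.73 and 6.37 with siATM. MIR3671 read 7.17 and 7.01 with siNC and 8.04 and 7.63 with siATM, and its call did not hold.

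**Figure D4:**
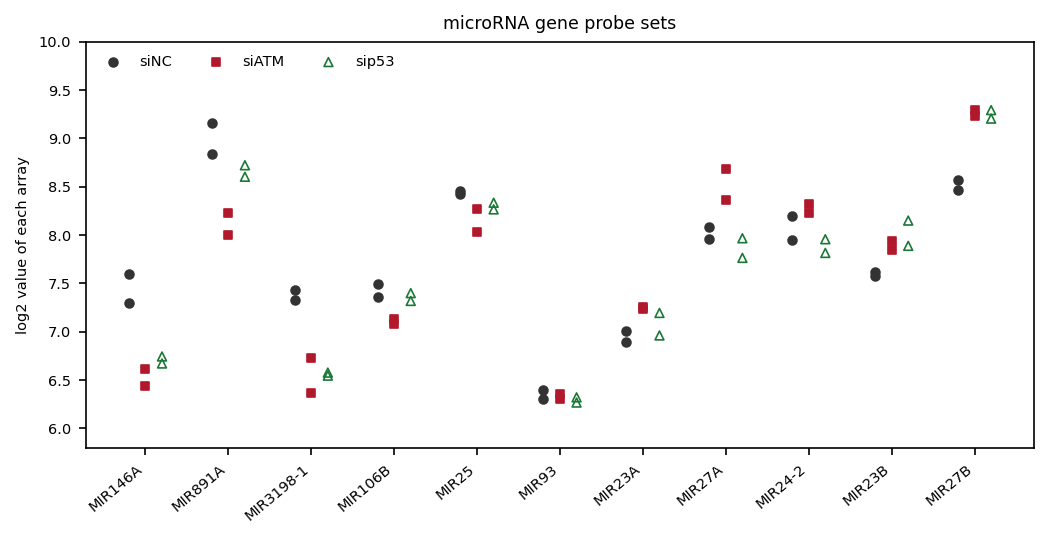
Log2 value of each array (vertical axis) for 11 microRNA gene probe sets (horizontal axis), with siNC as filled circles, siATM as filled squares and sip53 as open triangles. For MIR146A and MIR27B the sip53 arrays lie with the siATM arrays, and for MIR27A they lie with siNC.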

How the data were processed

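Total RNA of 6 samples, 2 for each siRNA, was measured on Affymetrix Human Gene 2.0 ST arrays. The authors deposited log2 values per probe set, read as log2 from their range (1.33 to 14.2); their background correction, summarisation, normalization and build are not given in the sources used here. Scanner files were not used here, so scan batches were not tested. Of 53617 probe sets, 16098 carried 1 gene symbol, 0 several and 37519 none in the platform annotation; these were 14884 genes, and 779 had more than 1 probe set. No coordinates of probe sets are given. The lists cover named symbols only, and 66 of 72 had at least 5 tested members. The members and lists were chosen with earlier results of these data known.

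Group means were fitted to all 6 arrays with limma 3.58.1 (R 4.3.3) and eBayes (3 residual and 7.29 total degrees of freedom), with two-sided p-values adjusted by Benjamini-Hochberg over the 10640 genes. The procedure was tested on simulated data. Genes named were the 25 largest rises and falls among called genes with no overlap of arrays, leaving out LOC, LINC, MIR, SNOR, SCARNA, RNU, RNY, RNA5S, -AS and -IT symbols, up to 5 called members of each list, the 5 largest changes each way of the left-out symbols, and CXCL8; MCM7 and cluster neighbours of microRNAs and members named for their promoter were added after their values were seen, as was the rule for calls that hold. Array replicate numbers were checked for pairing. Promoters were the first RefSeq entry of each symbol. The alternatives were the filter on dim genes, the scaling of arrays, the handling of probe sets, the moderation, the replicate block, the 4 arrays alone and each array left out in turn. One result is not reported here.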

Additional observations from a re-analysis of the deposited data

How the results depend on the processing

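Precision is limited by 2 arrays per group. Low signal over background may also compress differences of dim probe sets, which was not tested. The number of genes called higher was 819 without the filter on dim genes, against 1325. With 1 siATM or siNC array left out, the genes called were 1437 to 2212, those higher 655 to 1064 and those lower 780 to 1231. The direct contrast of siATM and sip53 gave 1842 to 2812 genes with 1 array left out, against 3219. Centring each array on its median gave 1201 higher and 1458 lower, quantile normalization 1206 and 1448, and a variance trend with robust moderation 1676 and 1578. Same-numbered arrays did not deviate together in all pairs of groups (correlations 0.0363, 0.0277 and 0.117), so the numbers were not taken as pairs; with the replicate block 2696 genes were called, 1297 higher and 1399 lower, and 3218 against sip53. Of 319 named genes 248 kept their call in all alternatives in which they were tested, 34 lost it without the filter, 50 without siNC replicate 1 and 52 without siNC replicate 2, and none reversed. In the lost calls the cause was not tested.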
